A study of Homo sapiens with 4 samples.

Results

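Of the 58735 gene rows in the count table, 6 genes with known neuronal roles are described here: PHF21B, INSM2, CELSR3, ADGRB2, GABBR2 and RIMS2. They were selected on their measured values in these same libraries, because their read counts were lowest with wild-type PBRM1, so their difference from the wild-type library is a description and was not put to any test. Their rows were found by gene symbol, and all 6 were among the 16262 genes that reached 1 CPM (read counts per 1000000 reads of scaled library size) in some library. Every cell in the series was HEK293T, an established human embryonic kidney line, with its own PBRM1 disrupted by CRISPR. For 48 h the cells carried a plasmid encoding GFP-tagged PBRM1, which was the P1048R mutant, the T1202K mutant, the C1233W mutant or the wild-type protein (WT). The series title places the mutations in the BAH domain. There was 1 library of total RNA per construct, 4 in all, so no difference below has a replicate check, no p-value is given, and variation between cultures cannot be told apart from the effect of a construct. Expression was transient, and the labels do not say whether the disrupted cells were 1 clone or a pool. Disrupted cells with no PBRM1 construct were not analysed here.

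PBRM1, also called BAF180 or polybromo, is a subunit of the PBAF form of the SWI/SNF chromatin remodelling complexes, which move and evict nucleosomes. It carries a row of bromodomains, which bind acetylated histone tails, followed by bromo-adjacent homology (BAH) domains, a fold found in many chromatin proteins. In cells outside the nervous system many neuronal genes are held at low levels by the repressor REST, which binds the RE1 element and brings in the CoREST corepressor with the histone demethylase LSD1. HEK293 lines are of kidney origin by name but are known to express a number of neuronal genes.

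Library totals lay between 10246250 and 11205322 reads, and the scaling factors applied to them (TMM) between 0.912 and 1.07. PBRM1 itself was read at 8805 CPM with P1048R, 15262 CPM with T1202K, 60509 CPM with C1233W and 22768 CPM with WT, and the counts do not separate plasmid from chromosomal reads. The WT library, which was lowest for the 6 genes, thus stood between C1233W and T1202K in PBRM1 level. Mitochondrially encoded genes took 5.63% of reads with P1048R, 5.53% with T1202K, 6.23% with C1233W and 8.48% with WT. The part of PBRM1 level and of the mitochondrial share in the values below was not tested. Of 16 neuronal marker genes 12 reached 1 CPM in some library, and the sum of all 16 was 401 CPM with P1048R, 434 CPM with T1202K, 491 CPM with C1233W and 612 CPM with WT, with the highest sum in the WT library. The neurofilament gene NEFM alone made up 172 CPM with P1048R, 185 with T1202K, 192 with C1233W and 345 with WT of that sum. Without it, a step chosen after its values were seen, the other 15 summed to 228.9 CPM with P1048R, 249.2 with T1202K, 299.1 with C1233W and 266.5 with WT, so that C1233W and not WT was highest. DCX and ELAVL4, which mark young and postmitotic neurons, had 0 reads in all 4 libraries, and so did the kidney tubule genes CDH16 and UMOD. In bulk RNA, fewer cells expressing a gene and less of its RNA per cell cannot be told apart.

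Together the 6 genes held 2503 reads with P1048R, 1707 with T1202K, 1537 with C1233W and 434 with WT, or 209.7, 150.7, 148.7 and 46.4 CPM in the same order of libraries. Each of the 6 had its lowest level with WT and its highest with P1048R. A gene is said to pass the size rule when its log2 ratio between a pair of libraries, taken after adding 0.5 to each count, is at least 1 in size and the 95% counting interval of the ratio excludes 0. All 6 passed it as higher with each mutant than with WT, which is the direction they were chosen for. Among all 16262 genes, 4.48% passed as higher with P1048R than with WT, 2.95% with T1202K and 4.19% with C1233W, and 204 genes, or 1.25%, did so with all 3 mutants. In the other direction 3.02% were lower with P1048R than with WT, 2.21% with T1202K and 1.21% with C1233W, and 54 genes, or 0.332%, were lower with all 3. On library sizes without TMM factors the split of all genes was 1253 higher and 231 lower with P1048R, 806 and 221 with T1202K, and 943 and 125 with C1233W, and the 6 genes passed there too. The median log2 ratio of the 6 genes was 2.28 for P1048R, 1.76 for T1202K and 1.72 for C1233W against WT, beside medians of all genes of -0.04, -0.01 and -0.01. Intervals here and below cover counting error only.

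**Figure D1:**
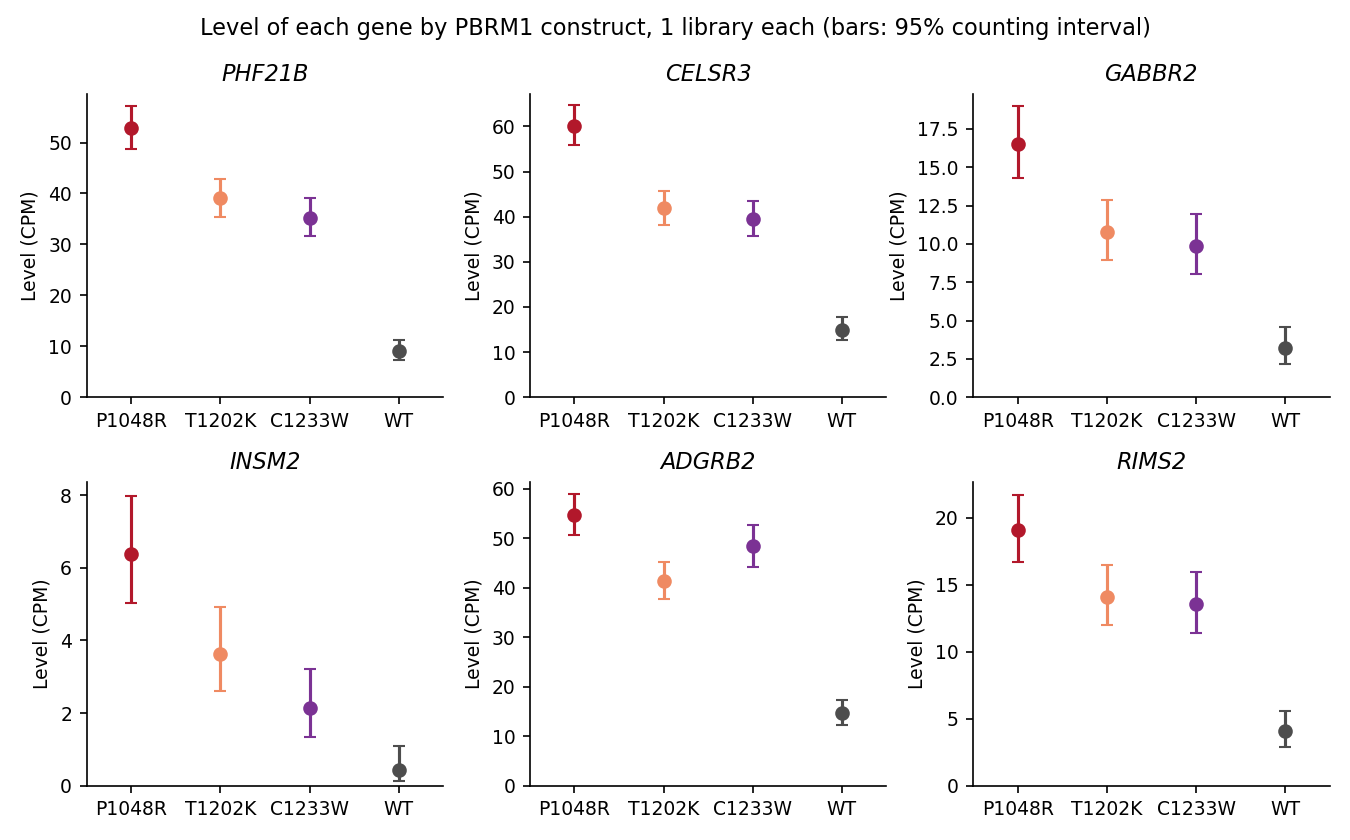
Level of each of the 6 genes in each library, in CPM on a linear axis, with exact 95% Poisson intervals as bars. Libraries run P1048R, T1202K, C1233W and WT. In every panel WT is lowest and P1048R highest, and INSM2 with WT rests on 4 reads.

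The first pair of genes encode nuclear proteins. PHF21B, a PHD-finger protein whose paralog PHF21A (BHC80) is a subunit of the LSD1-CoREST complex, lies on the minus strand at chr22:44881162-45009999 (GRCh38, ENSG00000056487). It had 631 reads with P1048R, 442 with T1202K, 364 with C1233W and 85 with WT, which correspond to 52.9, 39.0, 35.2 and 9.09 CPM. The WT level, with an exact Poisson interval of 7.26 to 11.2 CPM, lay far below the lowest mutant interval, which began at 31.7 CPM with C1233W. Its log2 ratio to WT was 2.53 with P1048R (interval 2.21 to 2.88), 2.09 with T1202K (1.76 to 2.45) and 1.95 with C1233W (1.61 to 2.31).

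INSM2, a zinc-finger protein of the insulinoma-associated family whose better known member INSM1 drives neuroendocrine and neuronal differentiation, is a gene of 3013 bases on the plus strand at chr14:35534042-35537054 (ENSG00000168348). It had the fewest reads of the 6, at 76 with P1048R, 41 with T1202K, 22 with C1233W and 4 with WT, or 6.37, 3.62, 2.13 and 0.428 CPM. It also had the largest ratios to WT among the 6, with log2 values of 3.73 for P1048R (2.48 to 5.81), 2.93 for T1202K (1.62 to 5.02) and 2.18 for C1233W (0.76 to 4.31). Because the WT level rests on 4 reads, with an interval of 0.117 to 1.10 CPM, the size of these ratios is known only within those wide limits. Over all genes tested, INSM2 stood at place 17 and PHF21B at place 66 when ordered by the mean log2 ratio of the 3 mutants to WT. RIMS2, GABBR2, ADGRB2 and CELSR3 stood at places 100, 104, 157 and 183. This order rests on the values the 6 genes were chosen by.

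The next pair are adhesion G-protein-coupled receptors at the cell surface. CELSR3 is a large cadherin receptor of the Flamingo family that guides axon tracts in the mouse brain, and lies on the minus strand at chr3:48636469-48662915 (ENSG00000008300). It had 718 reads with P1048R, 474 with T1202K, 409 with C1233W and 140 with WT, or 60.1, 41.9, 39.6 and 15.0 CPM. Its log2 ratio to WT was 2.0 with P1048R (1.74 to 2.28), 1.48 with T1202K (1.21 to 1.76) and 1.40 with C1233W (1.12 to 1.69). Its WT interval of 12.6 to 17.7 CPM did not meet that of any mutant, the lowest of which began at 35.8 CPM with C1233W.

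ADGRB2, also called BAI2, is a brain-enriched member of the brain-specific angiogenesis inhibitor family, on the minus strand at chr1:31727117-31764893 (ENSG00000121753). It had 653 reads with P1048R, 468 with T1202K, 500 with C1233W and 137 with WT, or 54.7, 41.3, 48.4 and 14.7 CPM. Its log2 ratio to WT was 1.90 with P1048R (1.63 to 2.18), 1.49 with T1202K (1.22 to 1.78) and 1.72 with C1233W (1.45 to 2.01). ADGRB2 was the only gene of the 6 with more in C1233W than in T1202K, and the other 5 had the order P1048R, T1202K, C1233W and WT from high to low. With the trend in GC content and length taken out, its ratio with T1202K was 1.14, 1 value of 324 for these genes and settings that left its own counting interval.

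Promoter windows are shown because RE1, the element REST binds, is known from many neuronal promoters. The 6 genes were chosen for being lowest with WT, and whether they share a regulator was not tested. The RefSeq table of windows on GRCh38.p14, each from 250 bases before to 50 bases after a gene's start, held 4 of the 6 genes, ADGRB2, CELSR3, GABBR2 and INSM2. The CELSR3 window at chr3:48662837-48663136 and the INSM2 window at chr14:35533914-35534213 are printed 5′ to 3′ on the strand of the gene, minus for CELSR3 and plus for INSM2. Capitals mark TTCAGCACC, a stretch of the RE1 consensus, GGACAGC, another stretch of it, GGGCGG or its reverse complement CCGCCC (the GC box), CCAAT or its reverse complement ATTGG, and TATAAA.
CELSR3: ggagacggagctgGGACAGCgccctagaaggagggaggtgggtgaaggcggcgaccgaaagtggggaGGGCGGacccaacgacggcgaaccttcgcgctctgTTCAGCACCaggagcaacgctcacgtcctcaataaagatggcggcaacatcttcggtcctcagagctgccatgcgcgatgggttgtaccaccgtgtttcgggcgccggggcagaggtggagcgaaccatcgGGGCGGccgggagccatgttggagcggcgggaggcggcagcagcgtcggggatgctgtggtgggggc
INSM2: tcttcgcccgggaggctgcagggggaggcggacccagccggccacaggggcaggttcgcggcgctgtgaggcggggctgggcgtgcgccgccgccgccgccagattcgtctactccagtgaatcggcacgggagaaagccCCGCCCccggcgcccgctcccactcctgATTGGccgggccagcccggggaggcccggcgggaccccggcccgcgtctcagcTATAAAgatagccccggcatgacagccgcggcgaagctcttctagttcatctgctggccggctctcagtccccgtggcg

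Both strands of each window were searched, and matches could overlap. TTCAGCACC stood in the CELSR3 window at 148 bases before the start and was in 0.376% of all 35116 windows. The GGACAGC stretch was 237 bases before the start of CELSR3, on the same strand as TTCAGCACC but apart from it, and in 6.03% of all windows. Of RE1 only these short stretches were searched for, so the matches do not show a whole element. GC boxes were in all 4 members' windows, in 45.0% of all windows and in 65.3% of those of genes tested. CCAAT, in 34.6% of all windows and 34.5% of those of genes tested, and TATAAA, in 11.5% and 6.58%, were in that of INSM2 alone among the 4. CACGTG, the E-box, and TGACGTCA, the cyclic AMP response element, were in 7.26% and 1.85% of all windows and in 0 of these 4. Among the 202 windows of genes that passed the size rule as higher with all 3 mutants, 3 held TTCAGCACC, or 1.49%, and 12 held GGACAGC, or 5.94%. Among the windows of all genes tested the shares were 0.238% and 6.34%, so the second stretch was no more frequent among the higher genes, and 1 of the 3 windows with the first is that of CELSR3, a gene chosen for being higher. The 3 were CELSR3, PSD, an exchange factor for the small GTPase ARF6, and CCNB1IP1, a ubiquitin ligase known from meiotic crossing over; CCNB1IP1 is named after its values were seen. Their 30-base stretches, all on the minus strand, are given with the match in capitals, at chr3:48663015-48663044 for CELSR3, chr10:102419674-102419703 for PSD and chr14:20333362-20333391 for CCNB1IP1.
CELSR3: tcgcgctctgTTCAGCACCaggagcaacgc
PSD: cgctgtccccTTCAGCACCacgcggagtcc
CCNB1IP1: gttacgtcatTTCAGCACCttttaaggtaa

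The matches are a description of letters in these windows, and no binding was measured. G and C made up 80.3% of the window of ADGRB2, 79.0% for GABBR2, 73.0% for INSM2 and 67.0% for CELSR3. In that order the windows stood at percentiles 97.7, 96.3, 86.4 and 72.2 of all windows. Their ratio of observed to expected CpG was 0.994, 1.08, 0.876 and 0.947 in the same order of genes, which placed them between percentile 77.5 and percentile 96.8 of all windows. Percentiles among the windows of genes tested were not taken.

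The last pair act at the synapse. GABBR2, the subunit of the GABA-B receptor that couples to G proteins, lies on the minus strand at chr9:98288082-98709197 (ENSG00000136928). It had 197 reads with P1048R, 122 with T1202K, 102 with C1233W and 30 with WT, or 16.5, 10.8, 9.87 and 3.21 CPM. Its log2 ratio to WT was 2.34 with P1048R (1.80 to 2.97), 1.73 with T1202K (1.16 to 2.37) and 1.60 with C1233W (1.02 to 2.26). GABBR1, the partner that binds GABA, had 51.8 CPM with P1048R, 43.6 CPM with T1202K, 53.2 CPM with C1233W and 56.1 CPM with WT. Its log2 ratios to WT were -0.12, -0.36 and -0.08 for P1048R, T1202K and C1233W, so GABBR1 was not higher with any mutant.

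RIMS2, a scaffold of the presynaptic active zone that links synaptic vesicles to calcium channels, lies on chromosome 8 (ENSG00000176406). It had 228 reads with P1048R, 160 with T1202K, 140 with C1233W and 38 with WT, or 19.1, 14.1, 13.5 and 4.07 CPM. Its log2 ratio to WT was 2.22 with P1048R (1.73 to 2.77), 1.78 with T1202K (1.28 to 2.35) and 1.72 with C1233W (1.21 to 2.29). An antisense gene inside RIMS2, AC012213.1, had 10 reads with P1048R, 6 with T1202K, 8 with C1233W and 4 with WT, and since the strand setting of the counting is not given, reads of such pairs cannot be told apart. Other genes overlapping the 6 had 10 reads or fewer in each library.

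Levels can be set side by side between genes only per kilobase of exon. On that scale PHF21B was highest of the 6 with P1048R, at 9.19 CPM per kb, and ADGRB2 was next at 7.05. The order of this pair was the other way with C1233W, at 6.12 CPM per kb for PHF21B and 6.24 for ADGRB2, and with WT, at 1.58 and 1.89. CELSR3 followed in every library, at 4.34 CPM per kb with P1048R and 1.08 with WT. GABBR2, INSM2 and RIMS2 were the lowest in every library, at 2.16, 2.11 and 1.40 CPM per kb with P1048R and 0.421, 0.142 and 0.299 with WT. Median GC content of the 6 genes' exons was 58.9%, from 40.3% for RIMS2 to 63.7% for ADGRB2, against 48.0% for all genes tested, and their median transcript length was 5601 bases against 3385. A smooth trend in GC content and length took up 2.61% of the variance of the log2 ratios with P1048R, 7.35% with T1202K and 3.83% with C1233W. With that trend removed the 6 genes still passed the size rule with every mutant, at log2 ratios between 1.14 and 3.65.

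The order among the mutants was not part of the stated selection, although the mutant libraries share the WT library as their comparison and were all in view. Of the 6 genes, 0 passed the size rule between P1048R and T1202K, where 0.664% of all genes were higher and 0.572% lower with P1048R. Their log2 differences were small, from 0.40 for ADGRB2 to 0.81 for INSM2, but all 6 counting intervals lay above 0, as did those of 12.0% of all genes. With C1233W against P1048R, all 6 intervals lay below 0, against 22.9% of all genes, and the log2 ratios ran from -0.18 for ADGRB2 to -1.56 for INSM2. INSM2 was the 1 gene of the 6 that passed the size rule there, with 2.13 CPM with C1233W and 6.37 CPM with P1048R (interval of the log2 ratio -2.34 to -0.88). In that comparison 3.73% of all genes passed as higher and 0.806% as lower with C1233W.

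Between C1233W and T1202K, 0 of the 6 genes passed the size rule. Few of all genes did so either, with 3.05% higher and 0.486% lower with C1233W. The interval excluded 0 for ADGRB2 alone, which was higher with C1233W by a log2 ratio of 0.23 (0.04 to 0.41). INSM2 was farthest apart, at 2.13 CPM with C1233W and 3.62 CPM with T1202K (log2 ratio -0.75, interval -1.58 to 0.01). The summed reads of the 6 genes gave a log2 ratio of -0.02 for C1233W against T1202K (-0.12 to 0.08), 0.48 for P1048R against T1202K (0.39 to 0.57) and -0.50 for C1233W against P1048R (-0.59 to -0.40). A counting interval that includes 0 does not show that the constructs act alike. The P1048R library had the highest level of 23.6% of all genes tested and of 113 of the 204 genes that passed as higher with all 3 mutants, or 55.4%, and it also had the lowest PBRM1 level. The part of PBRM1 level in this order was not tested.

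**Figure D2:**
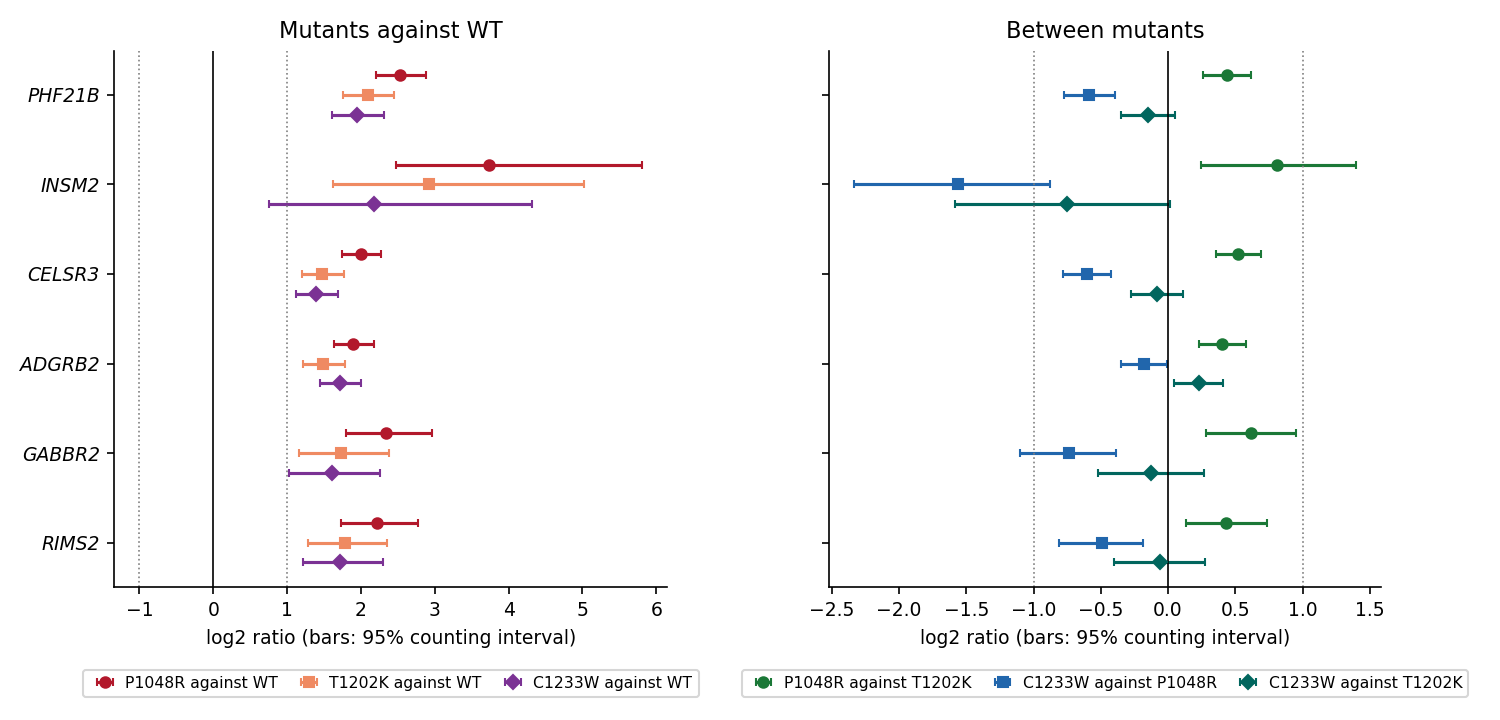
Log2 ratios of the 6 genes for each mutant against WT and for each pair of mutants, with 95% counting intervals; the size rule begins at 1 and -1. Against WT all points lie above 1, and among the mutant pairs only INSM2 with C1233W against P1048R lies past the rule.

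Close relatives of the 6 genes were compared because they are also neuronal or share protein domains with them. Among all genes tested the shares passing the size rule as higher and as lower were 4.48% and 3.02% with P1048R. They were 2.95% and 2.21% with T1202K, and 4.19% and 1.21% with C1233W. Of 10 paralogs, 1 passed the size rule as higher with P1048R and 0 with T1202K or C1233W, and 0 passed as lower. The 1 was RIMS1, the other large active-zone RIM, with 3.35 CPM with P1048R, 2.65 CPM with T1202K, 2.71 CPM with C1233W and 1.39 CPM with WT (log2 ratio with P1048R 1.23, interval 0.34 to 2.30). It rested on 40, 30, 28 and 13 reads and was not tested where at least 5 CPM were required. PHF21A came close to the rule in all 3 mutants, with 1054 reads with P1048R, 798 with T1202K, 902 with C1233W and 428 with WT, or 88.3, 70.5, 87.3 and 45.8 CPM. Its log2 ratios were 0.95 with P1048R (0.78 to 1.11), 0.62 with T1202K (0.45 to 0.79) and 0.93 with C1233W (0.76 to 1.10), so both PHF21 genes were lowest with WT. Under 1 of the 9 alternatives PHF21A passed with P1048R, and likewise with C1233W.

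The other relatives stayed under 2-fold against WT. INSM1 was at 14.7 CPM with P1048R, 15.4 with T1202K, 16.4 with C1233W and 13.8 with WT, and all 3 of its intervals against WT included 0. For the remaining cadherin receptors, CELSR1 had log2 ratios to WT of -0.13, -0.03 and -0.05 and CELSR2 of -0.35, -0.37 and 0.12 for P1048R, T1202K and C1233W. ADGRB1 stood at 0.30, 0.30 and 0.51 and ADGRB3 at -0.03, -0.29 and 0.14 in the same order. The small RIM proteins, which lack most of the domains of RIMS1 and RIMS2, had ratios of -0.37, -0.14 and 0.56 for RIMS3 and -0.07, 0.13 and 0.49 for RIMS4.

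**Figure D3:**
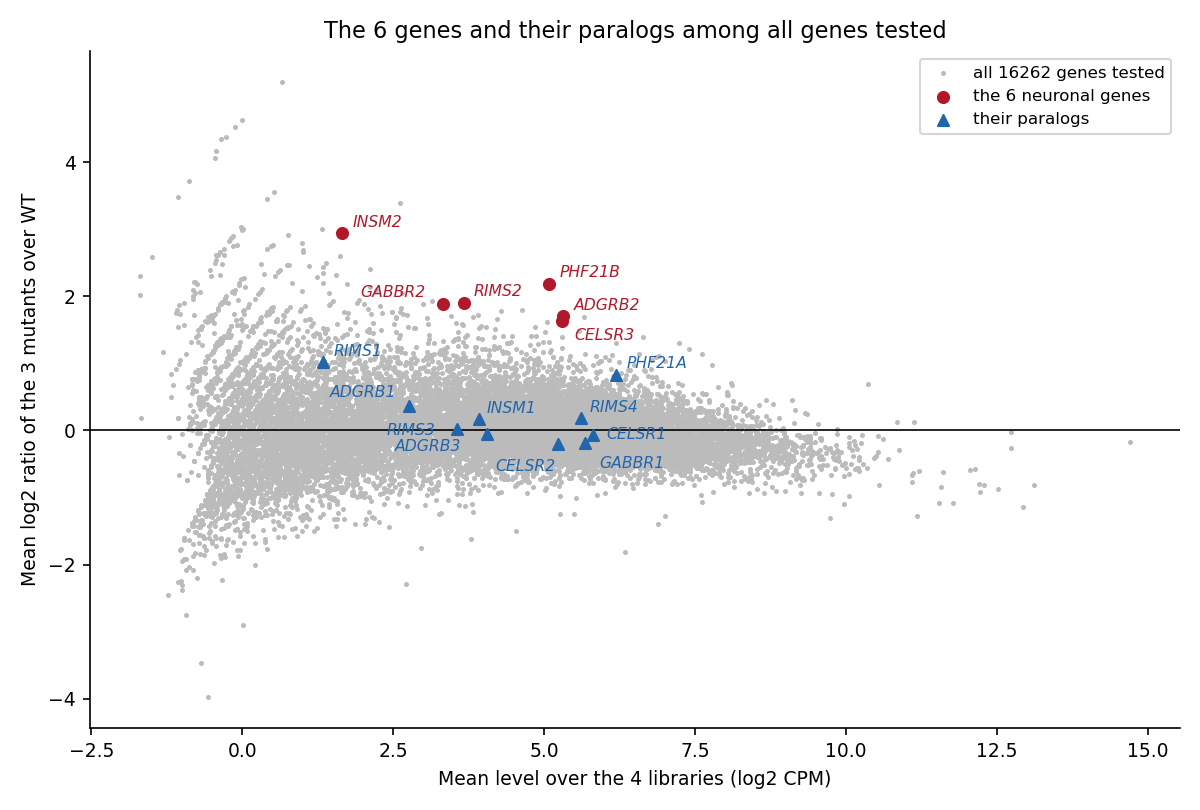
Mean log2 ratio of the 3 mutants to WT against mean level in log2 CPM for all 16262 genes tested (grey), with the 6 genes and their 10 paralogs marked. The 6 genes lie near the upper edge of the cloud, while RIMS1 and PHF21A are the highest of the paralogs.

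Lists of genes from the same pathways, which hold none of the 6, were counted by the same rule. They do hold the 10 paralogs above, so RIMS1 is counted again here. The lists were drawn up with earlier results of these data known. For comparison, 4.48% of all genes passed as higher and 3.02% as lower with P1048R. With T1202K these shares were 2.95% and 2.21%, and with C1233W 4.19% and 1.21%. Of 29 measured active-zone and vesicle-release genes, 5 passed as higher and 2 as lower with P1048R, 2 and 0 with T1202K, and 4 and 0 with C1233W. Their median log2 ratios were 0.14, 0.18 and 0.46 for P1048R, T1202K and C1233W. Those higher with P1048R were STX1A, SNAP25, RIMS1, ERC2 and RAB3A, those lower were PPFIA4 and RAB3D, and those higher with C1233W included SYT2, ERC2 and RAB3A. Apart from STX1A, SNAP25 and RIMS1 they are named after their values were seen, and among those so named only SYT2 and, with C1233W, RAB3A passed under every alternative. STX1A, the plasma-membrane SNARE of synaptic vesicle fusion, had 22.3 CPM with P1048R, 17.6 with T1202K, 15.0 with C1233W and 7.70 with WT, with log2 ratios of 1.52 (1.15 to 1.93), 1.18 and 0.96. Its partner SNAP25 had 13.3, 10.9, 8.42 and 5.24 CPM in the same libraries and log2 ratios of 1.33, 1.05 and 0.68. Both thus had the same order of libraries as most of the 6 genes, but neither passed the rule with C1233W; with T1202K, STX1A lost its place when the GC and length trend was removed and SNAP25 under upper-quartile scaling.

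Of 22 genes encoding REST, CoREST-LSD1 and INSM-bound corepressors, 1 passed as higher with P1048R, 1 as higher and 1 as lower with T1202K, and 2 as higher with C1233W, and the medians were 0.06, 0.12 and -0.01. RCOR2, a CoREST paralog, was higher with C1233W at a log2 ratio of 1.24 (0.89 to 1.62), and GFI1B, with 10 reads or fewer per library, was lower with T1202K, a call lost under 3 alternatives. Both are named after their values were seen. REST itself, also named after its values were seen, was at 91.2 CPM with P1048R, 87.2 with T1202K, 77.7 with C1233W and 112 with WT. Its log2 ratios to WT were -0.29, -0.36 and -0.52 for P1048R, T1202K and C1233W, and it did not pass the size rule. Of all genes tested, 33.4% were highest with WT. Other genes of the list went both ways, some highest and some lowest with WT. The part of REST level in the values of the neuronal genes described here was not tested. GFI1, a zinc-finger repressor that recruits LSD1 and CoREST, was the 1 gene of this list higher with all 3 mutants. It had 293 reads with P1048R, 212 with T1202K, 202 with C1233W and 83 with WT, or 24.5, 18.7, 19.5 and 8.88 CPM, and log2 ratios of 1.46 (1.11 to 1.84), 1.07 (0.70 to 1.46) and 1.13 (0.76 to 1.52). With T1202K it no longer passed under upper-quartile scaling or with the GC and length trend removed.

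Of 12 measured GABA signalling genes 0 passed as higher with any mutant. KCNJ3, a potassium channel opened by GABA-B receptors, passed as lower with P1048R, at 0.419 CPM with P1048R, 0.795 with T1202K, 2.03 with C1233W and 1.82 with WT. That call rests on few reads and KCNJ3 is not measured where at least 5 CPM are required. Of 23 other adhesion receptors and planar-polarity genes, 0 passed in either direction with any mutant, with medians of -0.08, -0.03 and 0.12.

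Broader neuronal lists had median log2 ratios to WT between -0.28 and 0.17. Of 13 neurogenic transcription factors, 1 passed as lower with P1048R, 0 passed with T1202K and 1 passed as higher with C1233W. The first was SOX2, a neural progenitor factor, with 4.69 CPM with P1048R, 5.92 with T1202K, 6.09 with C1233W and 10.5 with WT, which did not pass on library sizes without TMM factors. The second was MYT1, with a log2 ratio of 1.15 with C1233W. Of 26 pan-neuronal and neuroendocrine genes, 2 were higher and 3 lower with P1048R, 0 and 1 with T1202K, and 4 and 1 with C1233W. GAP43, a growth-cone protein, was lower with P1048R and T1202K, at 0.754 CPM with P1048R, 0.883 with T1202K, 4.55 with C1233W and 3.64 with WT. TUBB3, the neuronal beta-tubulin, had 22 reads with P1048R, 7 with T1202K, 19 with C1233W and 6 with WT, and passed as higher with P1048R and C1233W. Both fell out where at least 5 CPM were required. The others, named after their values were seen, were CHGB as higher and MAP2 and NEFM as lower with P1048R, and L1CAM, NRXN2 and RBFOX3 as higher and CHGA as lower with C1233W. Of these, CHGB and RBFOX3 passed under every alternative, and the others were lost under at least 1.

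Of 36 axon-guidance genes, 0 passed with P1048R or T1202K and 3 passed as higher with C1233W. These were SLIT1, a secreted repellent, at a log2 ratio of 1.24 (0.66 to 1.88), the netrin receptor gene UNC5A at 1.26 on 22 reads with C1233W and 8 with WT, and SEMA3F, a secreted semaphorin, at 1.04. Removing the GC and length trend ended the calls of UNC5A and SEMA3F. Among markers of other tissues, 8 of 14 glial, 10 of 19 kidney epithelial and 6 of 15 blood, fibroblast and endothelial markers reached 1 CPM. Glial markers summed to 162 CPM with P1048R, 199 with T1202K, 181 with C1233W and 190 with WT, and kidney markers to 155, 191, 216 and 209 CPM. Blood, fibroblast and endothelial markers summed to 27.6, 35.6, 53.9 and 50.6 CPM, with CD3E and HBB at 0 reads in all libraries. CUBN, the endocytic receptor of the proximal tubule, was the 1 tissue marker higher with all 3 mutants, at 3.69 CPM with P1048R, 3.71 with T1202K, 5.61 with C1233W and 1.71 with WT, and it did not pass with P1048R and T1202K under upper-quartile scaling. Others passed in single comparisons: OLIG2 as higher with T1202K, SLC1A2 as higher with C1233W, KDR as lower with P1048R, and CLDN5 as higher with P1048R and C1233W. GFAP, CDH1 and COL3A1, named after their values were seen, were lower with P1048R, and AQP4 was higher with C1233W. Each of these marker calls other than CUBN with C1233W was lost under at least 1 alternative. The part of these markers in the values of the 6 genes was not tested.

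**Figure D4:**
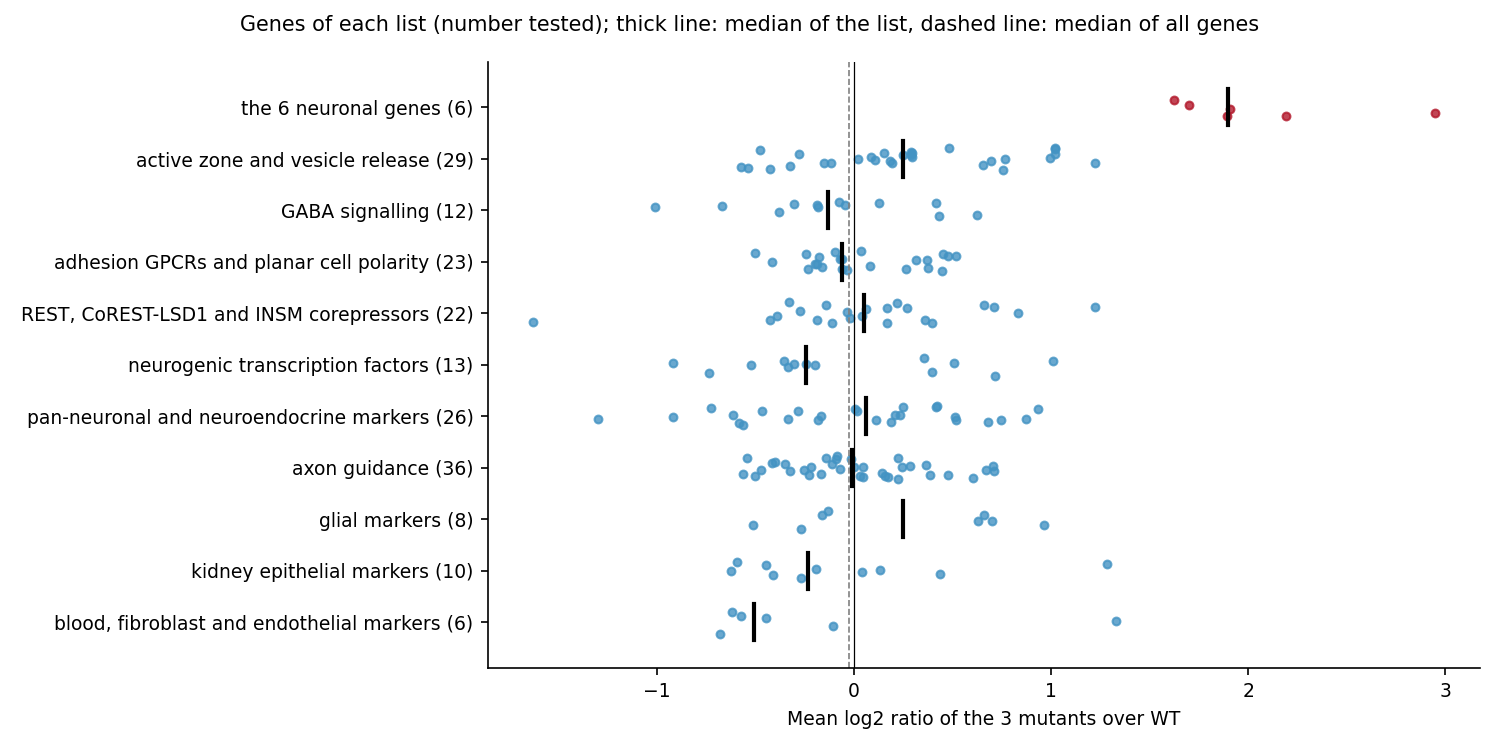
Mean log2 ratio of the 3 mutants to WT for the measured genes of each list, with list medians, and the 6 genes set apart. The 6 genes lie between 1.63 for CELSR3 and 2.95 for INSM2. For each mutant apart, which is not drawn, the medians of the neuronal lists were between -0.28 and 0.46.

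The genes most like the 6 in pattern were sought among 11451 protein-coding genes that reached 5 CPM in some library. Likeness was the distance between a gene's log2 CPM values, centred on their mean over the 4 libraries, and the mean centred pattern of the 6, which stood at 0.86 with P1048R, 0.34 with T1202K, 0.20 with C1233W and -1.39 with WT. GABBR2, RIMS2 and CELSR3 were the nearest, at distances of 0.101, 0.133 and 0.230, and the pattern was made from them among others. The 6 nearest genes outside the set were RBP5 at 0.237, FSD1L at 0.246, OVGP1 at 0.259, CARMIL3 at 0.296, PSD at 0.298 and IQUB at 0.307. ADGRB2 at 0.389 and INSM2 at 0.598 were farther than these, at places 17 and 59, so the 6 genes are not the tightest group that could be drawn from the table.

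All 6 of these nearest genes were lowest with WT and highest with P1048R, which follows from the pattern they were chosen by. FSD1L, a fibronectin and SPRY domain protein, had the most reads among them, at 51.0 CPM with P1048R, 36.9 with T1202K, 32.3 with C1233W and 12.8 with WT. OVGP1, an oviduct glycoprotein, had 21.5, 17.4, 15.8 and 5.46 CPM in those libraries, and IQUB, a cilium-associated protein, had 9.13, 6.45, 5.80 and 2.14 CPM. Per kilobase of exon OVGP1 was above FSD1L in every library, at 8.39 against 5.16 CPM per kb with P1048R and 2.13 against 1.30 with WT. CARMIL3, a regulator of actin capping protein, and RBP5, a cellular retinol-binding protein, had their next-highest level with C1233W instead, at 5.51 and 5.03 CPM against 4.50 and 4.77 CPM with T1202K. Their lowest levels, with WT, were 1.28 and 1.18 CPM. The likeness rests on 4 libraries.

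**Figure D5:**
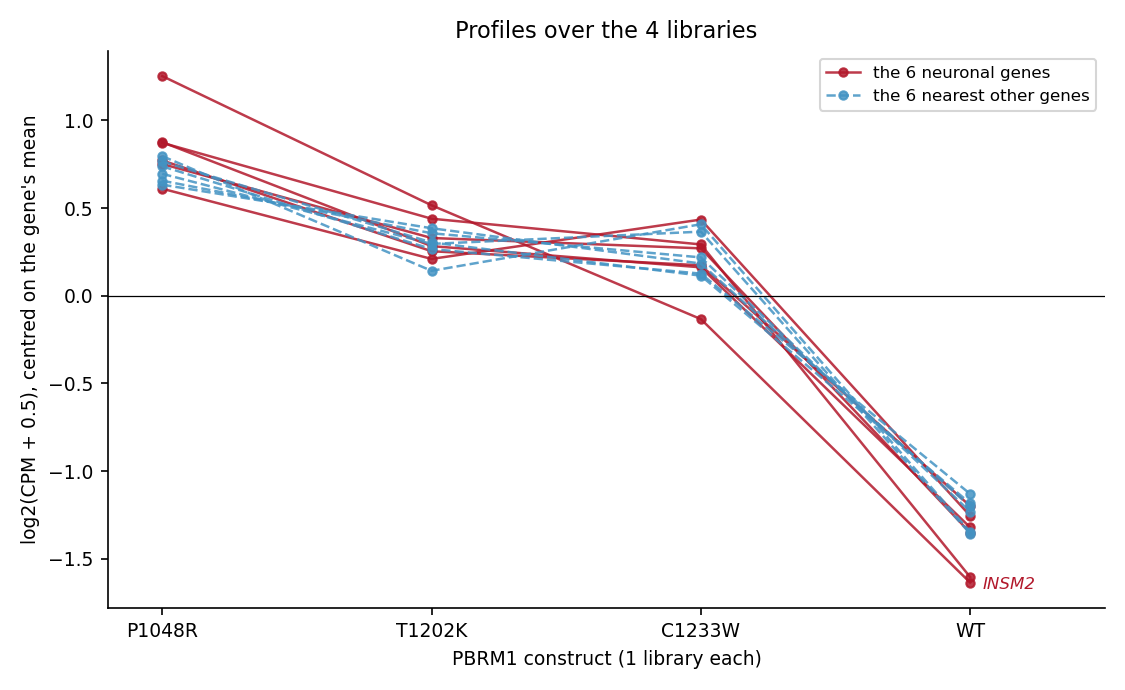
Log2 CPM centred on the gene's mean across the 4 libraries for the 6 genes and the 6 nearest genes outside the set, with libraries in the order P1048R, T1202K, C1233W and WT. All lines are highest with P1048R and lowest with WT, and INSM2 has the widest range.

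Neighbouring expressed genes were compared to see whether the difference reached beyond each locus. Of 12 neighbours, 2 passed as higher and 3 as lower with P1048R, 1 and 1 with T1202K, and 1 and 1 with C1233W. Over all genes tested, 4.48% passed as higher and 3.02% as lower with P1048R. The shares were 2.95% and 2.21% with T1202K, and 4.19% and 1.21% with C1233W. The closest neighbours stood near 0: SLC26A6, 976 bases from CELSR3, had log2 ratios of 0.00, 0.07 and -0.17 for P1048R, T1202K and C1233W, and RALGAPA1, 1298 bases from INSM2, had 0.13, -0.08 and -0.14. ARHGAP8, 18374 bases from PHF21B, went the other way, with 19 reads with P1048R, 22 with T1202K, 22 with C1233W and 42 with WT, and passed as lower with all 3 mutants. It shares exons with a read-through gene, so its counts are uncertain.

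The neighbours that passed as higher were NUP50-DT, a non-coding gene 123021 bases on the other side of PHF21B, and TBC1D2, a Rab GTPase-activating protein 32361 bases from GABBR2. NUP50-DT had 57 reads with P1048R, 38 with T1202K, 56 with C1233W and 21 with WT, and passed with P1048R and C1233W. TBC1D2 had 67, 66, 42 and 25 reads in the same libraries and passed with P1048R and T1202K. On both sides of ADGRB2, COL16A1 and SPOCD1 had 5 and 6 reads with P1048R and 12 and 14 with WT, and both passed as lower with P1048R.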

How the data were processed

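Total RNA of 4 HEK293T cultures was sequenced with a stranded kit, 1 library per construct. The deposited values are whole-number read counts per gene, not normalized by the authors. The submitters' processing notes list hg38 as the build and HISAT2, featureCounts and Trim Galore as tools. Tool versions, strand setting, annotation release and the handling of multiply aligned reads are not stated there or in the labels. Every one of the 58735 gene identifiers matched GENCODE 29 (GRCh38), which gave coordinates, length and GC content. Promoter windows came from RefSeq (GRCh38.p14).

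Library sizes were scaled by TMM (edgeR 4.0.16, R 4.3.3), and levels are CPM of the scaled sizes. A floor of 3 reads was 0.251 CPM with P1048R, 0.265 with T1202K, 0.290 with C1233W and 0.321 with WT. The 16262 genes that reached 1 CPM in some library were compared. Each ratio's interval was converted from the 95% Clopper-Pearson limits of the proportion of the pair's reads found in 1 of its libraries, and level intervals are exact Poisson. With 1 library per construct no test was possible. The calculation was tested on simulated data.

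The 6 genes and the 10 lists (245 genes) were chosen with earlier results of these data known. 1 list gene is not reported here by name. Named are the 6 genes, their paralogs, their nearest expressed neighbours, the 6 genes most like them, PBRM1, and, per list, the genes past the size rule in all 3 mutants or otherwise up to 2 with the largest mean ratio past it in any. Outside this rule, REST, marker genes at 0 reads and other list genes behind counts of 5 or fewer are named after their values were seen. Alternatives were total counts, DESeq2 1.42.0 size factors, upper-quartile factors, library sizes without PBRM1 and mitochondrial genes, no filter, at least 5 CPM, counts thinned to the smallest library, a GC and length trend removed (spline with 5 degrees of freedom), and a constant of 2 added in place of 0.5.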

Additional observations from a re-analysis of the deposited data

How the results depend on the processing

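The 6 genes passed the size rule as higher with each mutant than with WT under all 9 alternatives, and their counts past the rule between mutants did not change. They were chosen for being lowest with WT, and a change of filter alone leaves their ratios as they were. INSM2 reached 5 CPM only with P1048R, at 6.37 CPM, the library where it was highest. Counts over all genes moved by more than 1.5 times under several alternatives. On total counts, 1253 genes were higher and 231 lower with P1048R than with WT, 806 and 221 with T1202K, and 125 lower with C1233W; this scaling put the median log2 ratio of all genes at 0.19, 0.17 and 0.13 for P1048R, T1202K and C1233W. Where at least 5 CPM were required, so that fewer genes were compared, 432 were higher and 171 lower with P1048R than with WT, 284 and 75 with T1202K, 282 and 48 with C1233W, 9 and 8 with P1048R than with T1202K, 168 and 33 with C1233W than with P1048R, and 105 and 19 with C1233W than with T1202K. Upper-quartile scaling gave 589 genes lower with T1202K than with WT and 51 lower with C1233W than with T1202K. Without a filter 175 genes were higher with P1048R than with T1202K. The number of genes higher with all 3 mutants ran from 121 to 330, with all 6 among them each time. Of 540 list counts under the alternatives, 49 moved by more than 1.5 times. Depth limits INSM2 most, with 4 reads with WT. No paired analysis was possible because each construct had 1 library.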
